A study of Rattus norvegicus with 30 samples.

Results

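A set of 10 genes of renal phosphate transport and vitamin D handling was read out by RNA sequencing in the kidneys of rats kept on a low or a high salt diet. The genes were chosen by name, with earlier results of these data known, and all 10 were among the 32545 genes of the count table. They are 4 sodium-phosphate cotransporters (Slc34a1, Slc34a3, Slc20a1 and Slc20a2), a scaffold protein of the brush border (Slc9a3r1), 2 hormone receptors (Pth1r and Kl), and the enzymes and the receptor of the vitamin D hormone (Cyp27b1, Cyp24a1 and Vdr). The animals were male Sprague-Dawley rats, and the sources used here do not give the age of the sequenced rats. Renal cortex (Cx) and outer medulla (OM) were sampled from the right kidney, with 5 libraries in each of 6 groups. In the LS groups the rats were on a 0.4% NaCl diet, and in the HS14 and HS21 groups they had eaten a 4.0% NaCl diet for 14 or 21 days. The groups of a tissue thus differed by diet and the time spent on it. The labels number the libraries without naming the rat behind each, so *P* values measure the spread between these libraries. The study dissected the collected kidneys into both tissues, so the 2 tissues of a group shared rats. A cortical and a medullary library of equal number were still not taken as 1 rat.

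Phosphate is filtered at the glomerulus and taken back almost entirely in the proximal tubule, where sodium-coupled carriers of the brush border do the work. Parathyroid hormone (PTH) and FGF23, a bone hormone that needs Klotho as a coreceptor, both reduce this uptake. The same cells make the active vitamin D hormone with the enzyme encoded by Cyp27b1 and break it down with the enzyme encoded by Cyp24a1. The hormone acts through its receptor Vdr on calcium and phosphate transport in the gut, the kidney and bone.

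The libraries held between 5408126 and 21842843 counted read pairs. The shallowest was OM HS14 replicate 10, and the next held 12748841. Levels are given within a gene as CPM, the counts per 1000000 of a library after TMM scaling, and as CPM divided by the gene length in kilobases (RPKM) between genes. The tissue labels were checked with marker lists. The 7 markers of the early proximal tubule (segments S1 and S2) summed to 7402 to 8052 CPM in Cx LS and 44.1 to 1960 CPM in OM LS. The 4 thick ascending limb markers summed to 1211 to 1868 CPM in Cx LS and 9776 to 21131 CPM in OM LS. OM LS replicate 2 stood apart, with sums of 1960 CPM for the S1/S2 and 347 CPM for the distal convoluted tubule markers, where the other OM LS libraries reached 495 and 20.3 CPM. At the other end, OM LS replicate 5 had the lowest S1/S2 sum (44.1 CPM). Its markers of proximal segment S3 summed to 954 CPM, against 2902 to 6364 CPM in the other OM LS libraries.

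Positions are those of Ensembl genes on Rnor_6.0, and all 10 genes are protein coding. Slc34a1 (ENSRNOG00000015262, chr17:9747752-9762813, minus strand) encodes NaPi-2a, and Slc34a3 (ENSRNOG00000010451, chr3:2448381-2453933, minus strand) encodes NaPi-2c, the main phosphate carriers of the brush border. Slc20a1 (ENSRNOG00000018567, chr3:121725859-121739173, plus strand) and Slc20a2 (ENSRNOG00000019490, chr16:74317899-74408030, minus strand) encode Pit-1 and Pit-2, carriers found in many cell types. Slc9a3r1 (ENSRNOG00000003232, chr10:103713045-103730145, plus strand) encodes NHERF1, a PDZ protein that holds NaPi-2a in the brush border. Pth1r (ENSRNOG00000020948, chr8:118988053-119012671, minus strand) encodes the PTH receptor, and Kl (ENSRNOG00000001092, chr12:943006-987551, plus strand) encodes Klotho. Cyp27b1 (ENSRNOG00000046214, chr7:70335061-70340005, plus strand), Cyp24a1 (ENSRNOG00000013062, chr3:168097485-168111920, minus strand) and Vdr (ENSRNOG00000054420, chr7:139342063-139394166, minus strand) encode the hydroxylase that activates vitamin D, the hydroxylase that inactivates it and the vitamin D receptor. The library kit did not mark strand, so reads from an overlapping gene on the other strand cannot be told apart from theirs.

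RefSeq promoter windows on GRCr8, with 250 bases before and 50 bases from the annotated start, were found for 7 of the 10 genes, Slc9a3r1 under its current symbol Nherf1. Cyp24a1, Slc20a1 and Slc20a2 had no entry. The 4 matched genes called lower in the cortex after 21 days of high salt share that direction with 20.5% of all genes tested. Joint regulation was not tested. Their windows are printed here. They were searched on both strands for a TATA box, spelled TATAAA, and for a GC box, spelled GGGCGG. They were also searched for the letters CCAAT of the CCAAT box, for one arm of the HNF1 site, spelled GTTAAT, for the cAMP response element, whose letters are TGACGTCA, and for the direct repeat vitamin D response element. Of 33469 windows of this length, these motifs, in this order, were present in 14.2%, 33.1%, 37.5%, 7.45%, 1.83% and 0.0986%. Capitals mark every match, read on the printed strand or as its reverse complement, and no match overlapped one of another motif.
Slc34a1 (GRCr8, chr17:9238934-9239233, minus strand): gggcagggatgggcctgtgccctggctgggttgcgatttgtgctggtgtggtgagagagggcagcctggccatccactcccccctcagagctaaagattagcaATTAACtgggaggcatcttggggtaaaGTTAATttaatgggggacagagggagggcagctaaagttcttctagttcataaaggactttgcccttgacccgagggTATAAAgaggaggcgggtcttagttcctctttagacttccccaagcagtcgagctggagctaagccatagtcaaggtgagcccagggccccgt
Slc34a3 (GRCr8, chr3:28447948-28448247, minus strand): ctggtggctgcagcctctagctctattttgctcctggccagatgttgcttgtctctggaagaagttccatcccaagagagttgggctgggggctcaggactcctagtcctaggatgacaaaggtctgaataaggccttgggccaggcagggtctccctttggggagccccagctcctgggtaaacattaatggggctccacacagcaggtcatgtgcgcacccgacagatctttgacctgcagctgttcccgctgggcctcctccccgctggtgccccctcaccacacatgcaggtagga
Pth1r (GRCr8, chr8:119595522-119595821, minus strand): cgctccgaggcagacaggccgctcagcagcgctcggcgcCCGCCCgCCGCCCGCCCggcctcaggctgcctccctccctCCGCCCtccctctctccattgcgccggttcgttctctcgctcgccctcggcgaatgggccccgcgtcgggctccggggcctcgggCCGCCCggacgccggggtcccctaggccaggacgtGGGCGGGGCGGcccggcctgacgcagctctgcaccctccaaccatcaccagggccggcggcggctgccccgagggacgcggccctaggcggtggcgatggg
Cyp27b1 (GRCr8, chr7:64756376-64756675, plus strand): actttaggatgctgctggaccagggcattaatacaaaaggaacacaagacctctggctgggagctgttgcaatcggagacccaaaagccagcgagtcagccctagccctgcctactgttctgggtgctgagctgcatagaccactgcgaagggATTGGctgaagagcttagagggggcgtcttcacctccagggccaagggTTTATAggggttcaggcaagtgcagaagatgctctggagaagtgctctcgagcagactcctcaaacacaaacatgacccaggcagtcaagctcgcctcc
The Slc34a1 window held 1 TATA box 43 bases before the start and 2 separate matches to the HNF1 arm. The Cyp27b1 window held a TATA box and a CCAAT box, both on the opposite strand. The Pth1r window had 7 GC boxes, some sharing bases with each other, and a GC content of 78.7% against a median of 51.7% over all windows. None of these motifs was in the Slc34a3 window. GC boxes were also present in the windows of Slc9a3r1 (3), Kl (3) and Vdr (2). No matched window held the cAMP or the vitamin D element, which says only that these letters are not in the window.

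In the cortex of LS rats the 10 genes ranged from a dominant transcript to a scarce one. Slc34a1 stood at 2559.8 ± 101 RPKM (mean ± SD, *n* = 5). It was followed by Slc9a3r1 (345 ± 31.9 RPKM), Pth1r (321 ± 14.6 RPKM), Slc34a3 (152 ± 11.1 RPKM) and Kl (128 ± 9.08 RPKM). The vitamin D genes Cyp24a1 (70.3 ± 21.1 RPKM) and Vdr (61.5 ± 4.64 RPKM) came next, then Slc20a1 (19.5 ± 2.38 RPKM) and Slc20a2 (10.9 ± 0.318 RPKM), and Cyp27b1 was lowest at 2.83 ± 0.996 RPKM. The libraries of 3 neighbouring pairs in this order overlapped, namely Slc9a3r1 and Pth1r, Slc34a3 and Kl, and Cyp24a1 and Vdr. Of the summed RPKM of the 4 cotransporters, Slc34a1 made up 93.0% to 93.8% in the Cx LS libraries and 92.1% to 93.5% in the Cx HS21 libraries.

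Most of the genes were less abundant in the outer medulla than in the cortex on low salt. Of the 10 genes, 6 were lower and 1 was higher in OM LS than in Cx LS by edgeR's quasi-likelihood test, adjusted over all genes tested. Of all 14295 genes tested, 40.9% passed, 21.3% higher and 19.5% lower in OM. Under scaling to total counts 9 members passed, 2 higher and 7 lower, and of all 7388 genes called 5546 were higher, against 3051 of 5845 with TMM. The libraries of the 2 tissues did not overlap for 8 of the 10 members and for 29.1% of all genes.

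RNA of the vitamin D activating enzyme was near the detection floor in OM. Cyp27b1 was read at 9.16, 4.19, 8.98, 7.58 and 4.43 CPM in Cx LS, and with 3, 2, 2, 2 and 0 read pairs in OM LS. Every OM library was thus near or below a floor of 3 counts, and the ratio of the fit (log2 ratio -5.74, SE 0.452, adjusted *P* = 9.35e-06) depends on the prior count of the fit. The receptor Vdr was read at 254, 294, 252, 275 and 295 CPM in Cx LS and at 74.4, 122, 70.7, 63.8 and 54.1 CPM in OM LS. It was lower in all 5 OM libraries (log2 ratio -1.84, SE 0.205, adjusted *P* = 7.79e-05). Cyp24a1 ranged from 120 to 301 CPM in Cx LS and from 0.204 to 106 CPM in OM LS, and did not pass the test (log2 ratio -2.97, adjusted *P* = 0.063). Without OM LS replicate 2, the library with 106 CPM, it did (log2 ratio -4.61, adjusted *P* = 0.00329). Cyp24a1 also passed when libraries of equal number in the 2 tissues were taken as pairs.

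NaPi-2a and NaPi-2c RNA was lower in OM, and to unequal extents. Slc34a3 was read at 332, 367, 334, 331 and 299 CPM in Cx LS and at 0.491, 27.3, 5.39, 3.15 and 0.611 CPM in OM LS. The log2 ratio was -5.51 (SE 0.976, adjusted *P* = 0.00131). Slc34a1 was read at 6255, 6660, 6219, 6803 and 6392 CPM in Cx LS and at 458, 4310, 1316, 1061 and 127 CPM in OM LS. The groups did not overlap, but OM LS replicate 2 came within reach of the cortical libraries. The log2 ratio was -2.14 (SE 0.727, adjusted *P* = 0.0372), and -3.15 without that library (adjusted *P* = 0.0011). When single libraries were removed the call stood in 2 of 10 cases, those without OM LS replicate 2 or 5, and the adjusted *P* reached 0.0815 in the others. Slc34a1 exceeded Slc34a3 by 15.7 to 18.5 times in RPKM in Cx LS and by 137 to 808 times in OM LS.

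The receptors followed Slc34a1 and Slc34a3, and the Slc20 genes did not. Pth1r (709 ± 32.2 CPM in Cx LS and 210 ± 147 CPM in OM LS, log2 ratio -1.75, adjusted *P* = 0.00628) and Kl (493 ± 34.9 and 146 ± 36.9 CPM, log2 ratio -1.76, adjusted *P* = 2.53e-05) were lower in OM. Slc20a2 was higher there (54.4 ± 4.61 against 40.7 ± 1.19 CPM, log2 ratio 0.41, adjusted *P* = 0.00119). Slc20a1 (68.1 ± 4.62 against 60.4 ± 7.35 CPM, log2 ratio 0.17) and Slc9a3r1 (527 ± 301 against 515 ± 47.6 CPM, log2 ratio 0.03) did not pass. In RPKM the medullary order on LS was Slc34a1 (576 ± 659), Slc9a3r1 (353 ± 202), Pth1r (95.1 ± 66.6), Kl (38.0 ± 9.61), Slc20a1 (22.0 ± 1.49), Vdr (17.3 ± 5.89), Slc20a2 (14.6 ± 1.24), Cyp24a1 (8.93 ± 14.0), Slc34a3 (3.38 ± 5.17) and Cyp27b1 (0.0499 ± 0.0298). Neighbours in this order overlapped except Kl and Slc20a1, and Slc34a3 and Cyp27b1. In bulk tissue, fewer cells of a type and less RNA per cell cannot be told apart.

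**Figure D1:**
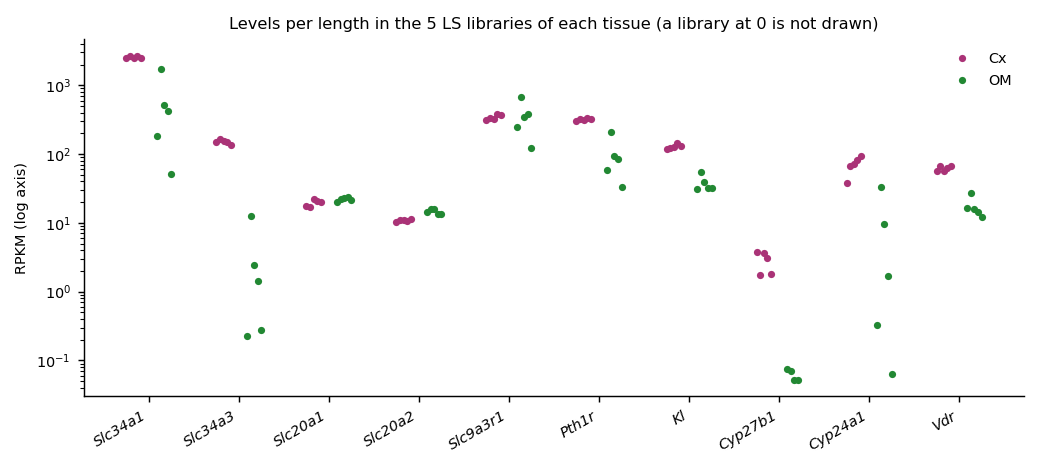
RPKM (log axis) of the 10 genes in the 5 LS libraries of cortex (Cx) and outer medulla (OM), 1 point a library. Slc34a1 lay at 2462 to 2693 RPKM in Cx and at 50.4 to 1706 RPKM in OM, while Slc20a1 lay at 19.5 ± 2.38 RPKM in Cx and at 22.0 ± 1.49 RPKM in OM (mean ± SD).

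After 21 days of high salt the cortex held less RNA of NaPi-2a, NaPi-2c, Pit-2, the PTH receptor and both vitamin D enzymes, and more of Pit-1. Of the 10 genes, 6 were lower and 1 was higher in Cx HS21 than in Cx LS. Of all 14299 genes tested, 39.4% passed, 18.9% higher and 20.5% lower, so 7 of 10 members stand beside a background in which changes were common. The members' median log2 ratio was -0.33, against 0.0046 over all genes tested. With total counts in place of TMM, 6 members passed (1 higher, 5 lower), the median of all genes moved to 0.13, and 4401 of 6054 calls were higher, against 2702 of 5638. The direction of each of the 10 genes was the same under all 3 scalings. The groups did not overlap for 2 members, Slc20a2 and Pth1r, and for 26.4% of all genes.

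Slc34a1 was read at 6255, 6660, 6219, 6803 and 6392 CPM in Cx LS, as above, and at 4189, 4446, 6329, 4575 and 4418 CPM in Cx HS21. All HS21 libraries except replicate 13 lay below every LS library. The HS21 level was 0.734 of the LS level (log2 ratio -0.45, SE 0.108, adjusted *P* = 0.00663), and the log2 ratio was -0.57 without replicate 13. Slc34a3 was read at 236, 250, 316, 269 and 246 CPM in Cx HS21, and again replicate 13 alone reached the LS range of 299 to 367 CPM. It stood at 0.783 of the LS level (log2 ratio -0.35, SE 0.0849, adjusted *P* = 0.00655). The ratio of the 2 carriers in RPKM was 16.9 ± 1.21 in Cx LS and 15.7 ± 0.974 in Cx HS21, ranges that overlapped.

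The 2 carriers of the Slc20 family went opposite ways. Slc20a1 was read at 53.6, 52.2, 69.5, 64.4 and 62.1 CPM in Cx LS and at 66.0, 80.6, 69.2, 71.4 and 89.5 CPM in Cx HS21. The upper LS and the lower HS21 libraries overlapped (log2 ratio 0.30, SE 0.0999, adjusted *P* = 0.0301). The call was lost without LS replicate 1, 2 or 5 or HS21 replicate 12 or 15, with adjusted *P* up to 0.0755. Slc20a2 was read at 38.9, 41.0, 41.5, 40.2 and 41.9 CPM in Cx LS and at 35.7, 32.7, 32.4, 33.6 and 31.0 CPM in Cx HS21. All HS21 libraries lay below all LS libraries (log2 ratio -0.31, SE 0.0546, adjusted *P* = 0.00101). The scaffold Slc9a3r1 ranged from 459 to 573 CPM in Cx LS and from 384 to 539 CPM in Cx HS21, and did not pass (log2 ratio -0.23, SE 0.0934, adjusted *P* = 0.0676). Without HS21 replicate 13 it did (log2 ratio -0.32, adjusted *P* = 0.00561), and likewise without LS replicate 1 (adjusted *P* = 0.0485).

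Of the hormone receptors, Pth1r was read at 662, 721, 694, 746 and 722 CPM in Cx LS and at 408, 603, 579, 494 and 439 CPM in Cx HS21. No library of one group reached the other, and the level was 0.704 of that on LS (log2 ratio -0.51, SE 0.102, adjusted *P* = 0.00241). Kl, the FGF23 coreceptor, ranged from 454 to 546 CPM in Cx LS and from 364 to 488 CPM in Cx HS21. Its difference did not pass (log2 ratio -0.23, SE 0.0899, adjusted *P* = 0.0663), and did without HS21 replicate 12 or 13 (adjusted *P* = 0.0316 and 0.0229).

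The 2 vitamin D enzymes, which make and break down the hormone, were both lower. Cyp27b1 was read at 1.28, 3.74, 2.88, 4.01 and 4.36 CPM in Cx HS21, against the LS values given above. The highest HS21 library lay above the lowest LS library, and the level was 0.470 of that on LS (log2 ratio -1.09, SE 0.329, adjusted *P* = 0.0206). Without LS replicate 1 or 3 the adjusted *P* was 0.0514 and 0.0508. Cyp24a1 was read at 120, 214, 232, 262 and 301 CPM in Cx LS and at 226, 108, 129, 141 and 106 CPM in Cx HS21. The groups overlapped through LS replicate 1 and HS21 replicate 11 (log2 ratio -0.68, SE 0.250, adjusted *P* = 0.0482). When single libraries were removed the call stood in 2 of 10 cases, those without LS replicate 1 (log2 ratio -0.84) or HS21 replicate 11 (log2 ratio -0.90). In the other 8 the adjusted *P* rose to as much as 0.115, and by DESeq2 it was 0.059. The RPKM ratio of Cyp24a1 to Cyp27b1 ranged from 9.91 to 51.3 in Cx LS and from 18.4 to 134 in Cx HS21. Vdr was read at 337, 350, 283, 244 and 265 CPM in Cx HS21, on both sides of the LS libraries (log2 ratio 0.09, SE 0.0988, adjusted *P* = 0.48).

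**Figure D2:**
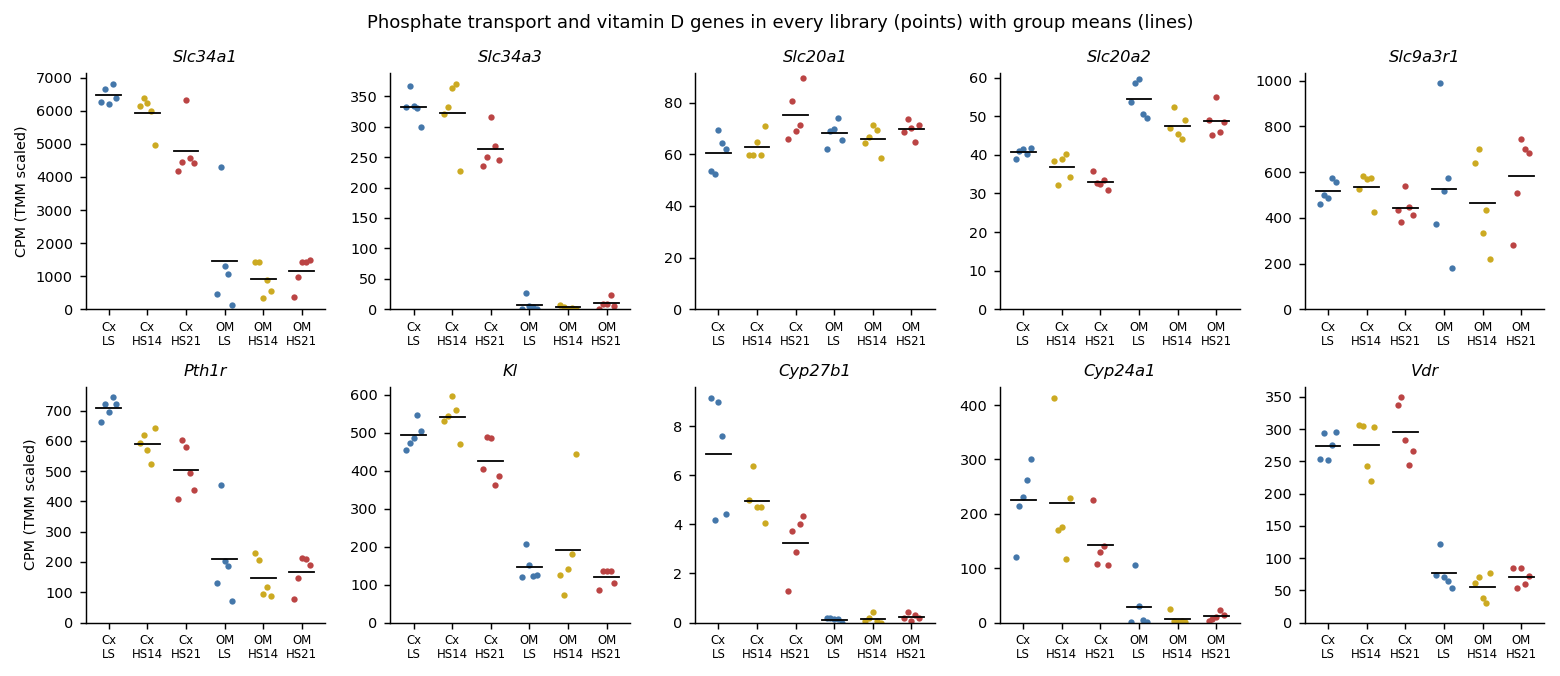
CPM of each gene (y axis, linear, from 0) in the 30 libraries by tissue and diet, 1 point a library, with the group mean as a line. Slc34a1 and Slc34a3 fell at HS21 in Cx in all libraries but replicate 13, and the OM groups overlap for every gene.

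After 14 days the picture in the cortex was less marked. None of the 10 genes passed in Cx HS14 against Cx LS by edgeR, 2 had an unadjusted *P* under 0.05, and 2.33% of all genes passed. Pth1r came nearest. It was read at 593, 619, 570, 523 and 642 CPM in Cx HS14, all below the LS libraries (log2 ratio -0.28, SE 0.0665, adjusted *P* = 0.0501). It was the 1 member with groups that did not overlap, as did 5.17% of all genes. By DESeq2 it was the 1 member that passed (adjusted *P* = 0.00272), and without Cx HS14 replicate 10 it passed in edgeR (adjusted *P* = 0.0145). Of all genes, 914 and 471 passed in these fits, against 330 in edgeR with every library. The other gene with a low unadjusted *P* was Slc20a2 (36.8 ± 3.44 against 40.7 ± 1.19 CPM, log2 ratio -0.16, adjusted *P* = 0.224). Cyp27b1 stood at 4.97 ± 0.851 CPM (log2 ratio -0.48, adjusted *P* = 0.319). Slc34a1 stood at 5940 ± 565 CPM (log2 ratio -0.14, adjusted *P* = 0.345) and Slc34a3 at 323 ± 57.5 CPM (log2 ratio -0.06, adjusted *P* = 0.826). Kl (541 ± 45.6 CPM, log2 ratio 0.11), Slc9a3r1 (536 ± 65.5 CPM, log2 ratio 0.04), Slc20a1 (63.0 ± 4.99 CPM, log2 ratio 0.05), Cyp24a1 (221 ± 115 CPM, log2 ratio -0.05) and Vdr (275 ± 41.2 CPM, log2 ratio -0.01, and 0.0035 with total counts) had an adjusted *P* of 0.41 or more.

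Set directly against each other, the cortical HS21 and HS14 libraries differed in 1 member. Kl was read at 406, 488, 487, 364 and 386 CPM in Cx HS21 and at 531, 545, 596, 560 and 471 CPM in Cx HS14, where replicate 10 alone reached the HS21 range (log2 ratio -0.34, SE 0.0949, adjusted *P* = 0.0336). Of all 14395 genes tested 16.2% passed. With total counts the 1 member that passed was Slc20a1, which was higher, in place of Kl, and 2084 of 2728 calls over all genes were higher, against 935 of 2330. With 1 library left out, 1029 to 3524 of all genes passed, and 0 to 4 members did. Without Cx HS14 replicate 10 these were Slc34a3 (log2 ratio -0.40), Slc9a3r1 (-0.35), Kl (-0.39) and Slc20a1 (0.30), and without HS21 replicate 13 they were Slc34a1 (-0.43), Slc9a3r1 (-0.36) and Kl (-0.40). Without HS21 replicate 12 Kl alone passed (-0.39), and in the 7 other fits no member did. The comparisons with LS share their control libraries and were not set against each other.

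**Figure D3:**
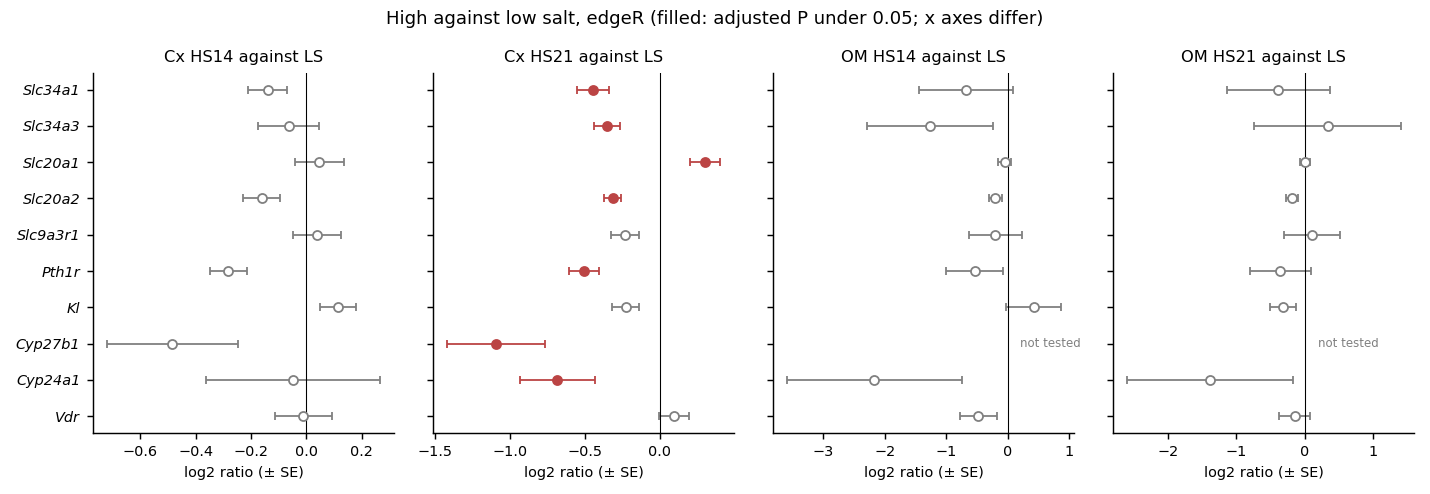
Log2 ratio (x axis, ± SE, scales differ between panels) of each gene for HS14 and HS21 against LS in cortex (Cx) and outer medulla (OM). Filled points passed at an adjusted *P* under 0.05 and stand in the Cx HS21 panel alone, 1 above and 6 below 0.

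In the outer medulla no member passed at either time, and the libraries of a group lay far apart. By edgeR 0 of 9 members tested passed at HS14, none with an unadjusted *P* under 0.05, against 0.00694% of all genes. At HS21 0 of 9 passed, 1 had an unadjusted *P* under 0.05 (Slc20a2, log2 ratio -0.19, adjusted *P* = 0.432), and 0.769% of all genes passed. By DESeq2 no member passed at either time. Between HS21 and HS14 0 of 9 members and 0% of all 14499 genes passed in edgeR, with 547 genes at an unadjusted *P* under 0.05, none of them a member, and 31 genes past the threshold by DESeq2. Cyp27b1 was below the low-count filter in all 3 comparisons, with 0 to 7 read pairs a library.

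The spread of the medullary libraries set what could be seen there. The S3 markers summed to 954 to 6364 CPM in OM LS, 1630 to 4652 CPM in OM HS14 and 1389 to 4846 CPM in OM HS21. Their part in the spread of the members was not tested. Slc34a1 was read at 1425, 1432, 331, 898 and 559 CPM in OM HS14 and at 369, 989, 1423, 1443 and 1488 CPM in OM HS21, beside 127 to 4310 CPM in OM LS. The log2 ratios were -0.67 (SE 0.765) and -0.39 (SE 0.756), and both changed sign without OM LS replicate 2 (0.30 and 0.58). Slc34a3 was read at 7.77, 4.05, 1.05, 1.42 and 1.03 CPM in OM HS14 and at 0.586, 7.86, 9.37, 23.6 and 5.98 CPM in OM HS21. Its SE was 1.03 and 1.07 on the log2 scale, so a change of the size seen in the cortex was not detectable in OM. Slc20a1 and Slc20a2 were more even across the OM libraries, with an SE of 0.077 to 0.108. In the cortex the SE was 0.0885 and 0.0999 for Slc20a1 and lower, 0.0655 and 0.0546, for Slc20a2 at HS14 and HS21. Slc20a1 stood at 66.1 ± 4.91 CPM in OM HS14 and 69.6 ± 3.40 CPM in OM HS21, against 68.1 ± 4.62 CPM on LS (log2 ratios -0.05 and 0.01). Slc20a2 stood at 47.6 ± 3.29 and 48.7 ± 3.94 CPM, against 54.4 ± 4.61 CPM on LS (log2 ratios -0.20 and -0.19).

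Pth1r was read at 130, 456, 204, 188 and 72.1 CPM in OM LS and at 78.9, 149, 213, 210 and 190 CPM in OM HS21 (log2 ratio -0.36, SE 0.447, adjusted *P* = 0.871). With the level of the proximal S1/S2 and S3 markers as a covariate the log2 ratio was -0.53, the SE fell to 0.0917 and Pth1r passed (adjusted *P* = 0.0136), the 1 member to do so in OM in any of the fits. With that covariate 947 of all genes passed, against 112 without it. Kl in OM HS14 was read at 124, 71.3, 140, 182 and 445 CPM, the last in the shallow replicate 10. Kl had 2584 counts there, and that library had the highest share of intronic bases among the OM libraries. The log2 ratio of Kl was 0.42 (SE 0.441) and changed sign without that library. Vdr stood at 55.5 ± 20.1 CPM in OM HS14 and 70.8 ± 14.5 CPM in OM HS21, against 77.0 ± 26.3 CPM on LS, Slc9a3r1 at 467 ± 203 and 584 ± 190 CPM against 527 ± 301 CPM, and Cyp24a1 at 6.36 ± 10.1 and 11.2 ± 8.27 CPM against 28.7 ± 44.9 CPM.

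Whether the response to the diet differed between the tissues was tested as an interaction. No member passed in edgeR at HS14, none had an unadjusted *P* under 0.05, and 0% of all genes passed, with 559 genes at an unadjusted *P* under 0.05 and 11 past the threshold by DESeq2. At HS21 0 of 10 members passed, 2 had an unadjusted *P* under 0.05, and 0.665% of all genes passed. By DESeq2 no member passed at either time. The 2 genes were Cyp27b1 (difference of log2 ratios, OM minus Cx, 1.94, SE 0.711, adjusted *P* = 0.198), read with at most 7 counts in OM, and Slc20a1 (-0.30, SE 0.128, adjusted *P* = 0.275). The cortical decreases were therefore not shown to be particular to the cortex.

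Cell type markers moved with the cortical result. The 7 S1/S2 markers summed to 7402 to 8052 CPM in Cx LS, 5003 to 7270 CPM in Cx HS14 and 4170 to 5082 CPM in Cx HS21, and all 7 were lower at HS21 (median log2 ratio -0.74). The distal convoluted tubule markers rose from 978 to 1189 CPM in Cx LS to 1424 to 2699 CPM in Cx HS21. All of this came from Slc12a3 (log2 ratio 0.83), since Pvalb was at 0 in these groups. The thick ascending limb list summed to 1211 to 1868 and 2089 to 2845 CPM, with 2 of 4 genes higher. The podocyte list summed to 530 to 596 and 645 to 771 CPM, with 3 of 4 higher, and the S3 list to 35.4 to 138 and 61.2 to 211 CPM, with 1 of 3 tested higher. The 10 leukocyte markers summed to 136 to 176 CPM in Cx LS, 180 to 301 CPM in Cx HS14 and 260 to 858 CPM in Cx HS21, and all 9 tested were higher. HS21 replicate 13, where Slc34a1 and Slc34a3 were highest, had the highest S1/S2 sum (5082 CPM) and the lowest leukocyte sum (260 CPM) of its group. It also had the highest thick ascending limb sum (2845 CPM) and the highest S3 sum (211 CPM). Its distal convoluted tubule and podocyte sums lay inside the range of the other HS21 libraries. The part of these markers in the members' result was not tested separately from diet. The sums of the S1/S2, distal convoluted tubule, thick ascending limb, podocyte and leukocyte lists did not overlap between LS and HS21, and those of the S3 list did.

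The members were also read relative to the S1/S2 markers, a reference that itself fell. On the scale of log2 CPM minus the mean of the 7 markers, 7 of the 10 genes lay higher in every HS21 library than in every LS library, and 3 overlapped (Pth1r, Cyp27b1 and Cyp24a1). Of all genes tested 77.6% lay higher in every HS21 library on this scale, so the members' count is close to the background. The difference was 0.32 for Slc34a1, 0.43 for Slc34a3, 0.47 for Slc20a2, 0.55 for Slc9a3r1 and for Kl, 0.87 for Vdr and 1.09 for Slc20a1. It was 0.27 for Pth1r, 0.11 for Cyp24a1 and -0.31 for Cyp27b1. These differences are a description, with no test.

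Fits of Cx HS21 against LS with such measures as covariates gave other calls, for the members and over all genes. Of all genes, 4909 passed with both proximal lists, 512 with the leukocyte markers and 1593 with the intron share, against 5638 without covariates. With the S1/S2 and S3 markers together, 6 members were lower, among them Kl (adjusted *P* = 0.0443), while Slc20a1 (adjusted *P* = 0.0917) and Cyp24a1 (adjusted *P* = 0.126) no longer passed. The covariate was 1 mean over both lists, which moved opposite ways (median log2 ratio -0.74 for S1/S2, 0.98 for the 3 S3 genes tested). It therefore does not hold the proximal level fixed, and no conclusion is drawn from the calls that stayed. With the S1/S2 markers alone no member and no gene passed, the log2 ratio of Slc34a1 turned to 0.90 and its SE rose to 0.533. With the leukocyte markers no member passed and the log2 ratio of Slc34a1 was -0.04 (SE 0.177). The S1/S2 sums and the leukocyte sums each did not overlap between Cx LS and Cx HS21. A fit with either list therefore cannot separate it from diet, and no conclusion is drawn from the lost calls. With the share of intronic bases 1 member passed, Slc20a1 (log2 ratio 0.64, adjusted *P* = 0.0328), and Slc34a1 no longer did (log2 ratio -0.47, SE 0.211, adjusted *P* = 0.173). The intron shares did not overlap between Cx LS and Cx HS21 either. That fit thus cannot separate the share from diet, and no conclusion is drawn from it. Slc20a2 had log2 ratios of -0.30 with both proximal lists (adjusted *P* = 0.00399), -0.26 with the leukocyte markers (adjusted *P* = 0.273), -0.29 with the intron share (adjusted *P* = 0.105) and -0.47 with the S1/S2 markers alone (adjusted *P* = 0.797).

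**Figure D4:**
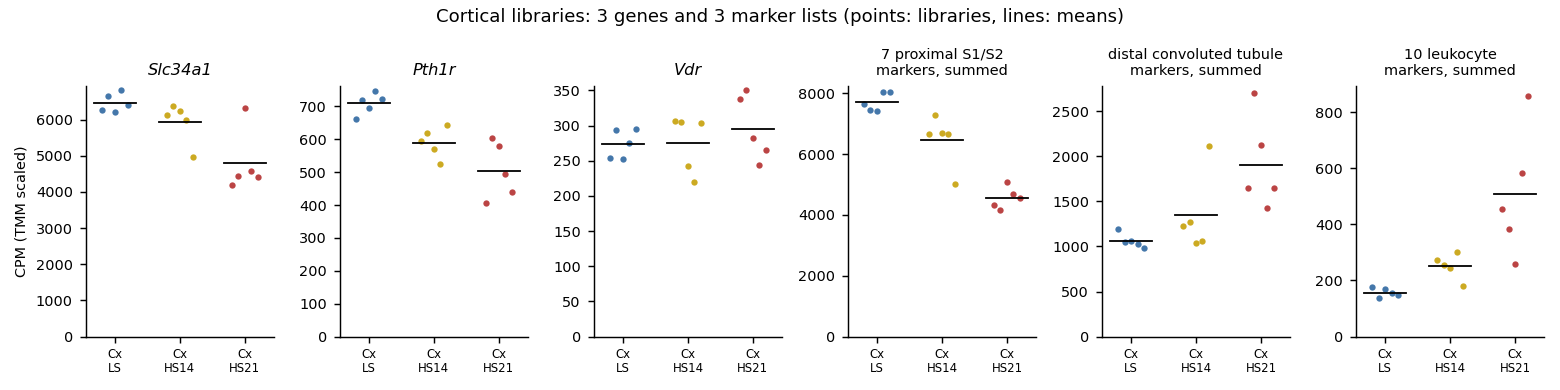
CPM (y axis, from 0) of Slc34a1, Pth1r and Vdr and of 3 summed marker lists in the cortical libraries, 1 point a library, lines at group means. The S1/S2 sums fell from 7402 to 8052 CPM on LS to 4170 to 5082 CPM at HS21, and the leukocyte sums rose from 136 to 176 CPM to 260 to 858 CPM.

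**Figure D5:**
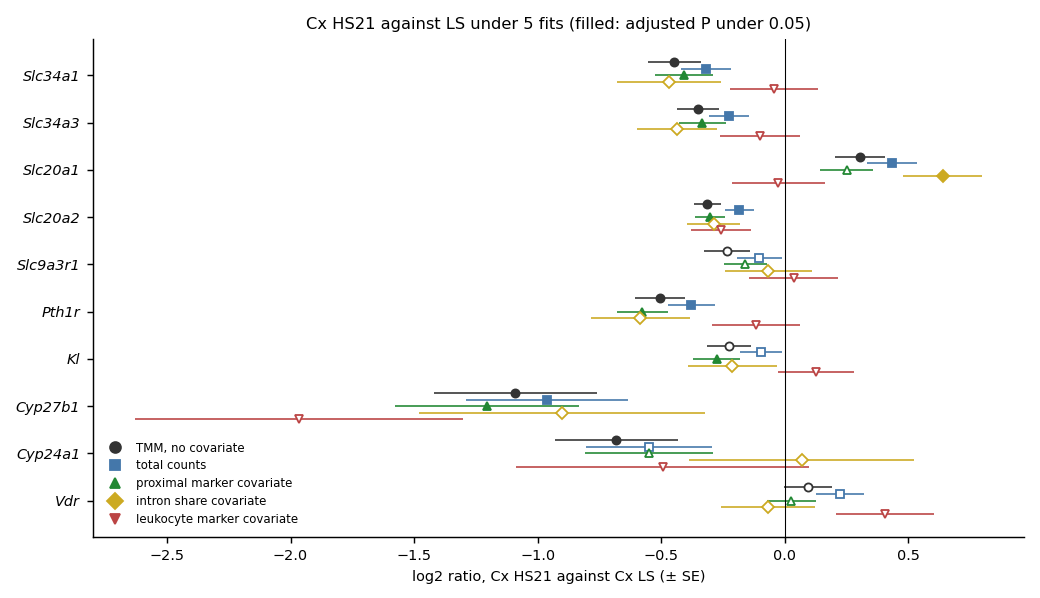
Log2 ratio (x axis, ± SE) of each gene in Cx HS21 against LS with TMM, with total counts and with 3 covariates, filled where the adjusted *P* was under 0.05. With the leukocyte covariate no point is filled, and with the intron share 1 is, Slc20a1. Of all genes, 512 and 1593 passed in these fits, against 5638 with TMM and no covariate.

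The other genes of these pathways were read from 4 lists of 47 genes, of which 43 were tested in Cx HS21 against LS. There 9 were higher and 18 lower (12 and 13 with total counts), beside 18.9% higher and 20.5% lower among all genes tested with TMM. The 12 partners of phosphate handling had 2 higher and 7 lower, with a median log2 ratio of -0.32. Xpr1, the phosphate exporter, was lower (36.2 ± 3.6 against 69.3 ± 5.77 CPM, log2 ratio -0.95, adjusted *P* = 1.56e-05), as was Slc17a1, a sodium-phosphate carrier that also moves organic anions (log2 ratio -0.85). Slc34a2, the NaPi-2b carrier best known from gut and lung, was higher (17.5 ± 7.54 against 8.36 ± 2.47 CPM, log2 ratio 1.05, adjusted *P* = 0.0164). Of the 12 tested genes of PTH, FGF23 and calcium sensing, 1 was higher and 2 lower (median -0.09). These were Stc1, encoding the hormone stanniocalcin-1 (log2 ratio 0.66, adjusted *P* = 0.00767), the G protein subunit Gnaq (-0.38) and the FGF receptor Fgfr1 (-0.27).

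Of the 13 tested genes of vitamin D uptake, activation and receptor partners, 2 were higher and 8 lower (median -0.31), beside 18.9% higher and 20.5% lower among all genes and 7 of 7 S1/S2 markers lower (median -0.74). Lrp2, encoding megalin, the receptor that takes up filtered vitamin D binding protein, stood at 2803 ± 319 CPM in Cx HS21 and 5526 ± 293 CPM in Cx LS (log2 ratio -0.99, adjusted *P* = 1.56e-05). Dab2, an adaptor of megalin, was lower as well (482 ± 51.8 against 1129.8 ± 74.6 CPM, log2 ratio -1.24, adjusted *P* = 3.28e-06). Cyp27a1, a mitochondrial sterol hydroxylase that can also act on vitamin D, was higher (23.0 ± 6.07 against 11.6 ± 1.86 CPM, log2 ratio 0.97, adjusted *P* = 0.00134). Of the 6 genes of vitamin D responsive calcium transport, 4 were higher and 1 lower (median 0.78), the calcium channel gene Trpv6 (1.69 ± 0.932 against 0.683 ± 0.176 CPM, log2 ratio 1.29, adjusted *P* = 0.0202), the calcium buffer Calb1 (894 ± 493 against 510 ± 87.4 CPM, log2 ratio 0.80, adjusted *P* = 0.0491) and the sodium-calcium exchanger Slc8a1 (174 ± 88.3 against 99.3 ± 9.77 CPM, log2 ratio 0.79, adjusted *P* = 0.0296) being the 3 with the largest change. Slc12a3, the marker of the same distal segment, was higher by a log2 ratio of 0.83, and its part in these increases was not tested.

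In Cx HS14 against LS 1 gene of the 4 lists passed, Stc1 (58.1 ± 22.1 against 21.1 ± 4.32 CPM, log2 ratio 1.44, adjusted *P* = 0.027). Of all 14181 genes tested there, 162 were higher and 168 lower. Between Cx HS21 and HS14, phosphate partners had 1 higher and 6 lower (Xpr1 -0.92, Slc17a1 -0.63, Slc17a3 -0.39), PTH, FGF23 and calcium sensing 0 and 2 (Gnaq -0.45, Fgfr1 -0.25), vitamin D uptake and activation 2 and 6 (Lrp2 -0.94, Dab2 -0.87, Cubn -0.77), and calcium transport 0 and 1 (Atp2b1 -0.43), as log2 ratios. Of all 14395 genes tested there, 935 were higher and 1395 lower. Among the 7 S1/S2 markers 5 were lower (median log2 ratio -0.56). In OM HS14 none of the 39 tested list genes passed, and 1 of all 14417 genes did. In OM HS21 2 list genes passed, Stc2, encoding stanniocalcin-2 (30.2 ± 25.1 against 1.96 ± 1.34 CPM, log2 ratio 3.91, adjusted *P* = 0.0342), and Enpp1, the enzyme that makes pyrophosphate (30.8 ± 2.36 against 41.0 ± 1.57 CPM, log2 ratio -0.44, adjusted *P* = 0.0288). Of all 14555 genes tested there, 93 were higher and 19 lower. The diet response differed between the tissues at HS21 for Stc2 (difference 3.43, adjusted *P* = 0.0345) and for Rxra, the partner of Vdr on DNA (difference 0.66, adjusted *P* = 0.0318). Of all 15194 genes in that test, 68 passed with a positive and 33 with a negative difference. Rxra was lower in Cx HS21 (72.1 ± 3.47 against 107 ± 3.68 CPM, log2 ratio -0.59, adjusted *P* = 1.56e-05).

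Between OM and Cx on LS, 22 genes of the 4 lists passed, 6 higher and 16 lower in OM (12 and 16 with total counts), beside 21.3% higher and 19.5% lower among all genes. The phosphate partners had 1 higher, Slc34a2 (107 ± 30.4 against 8.36 ± 2.47 CPM, log2 ratio 3.68, adjusted *P* = 5.28e-06), and 5 lower, led by the PDZ scaffold Pdzk1 (-1.67) and Xpr1 (-1.19). Slc34a2 was thus the 1 sodium-phosphate carrier of the Slc34 family with more RNA in OM than in Cx. Of the sensing genes Casr, encoding the calcium-sensing receptor, was higher (log2 ratio 1.12). Of the vitamin D partners 4 were higher and 6 lower, with Gc, encoding vitamin D binding protein, at 5.37, Rxrg at -5.40 and Dab2 at -2.68. All 5 tested calcium transport genes were lower, led by Trpv5 (-5.38), Calb1 (-5.31) and Slc8a1 (-3.30).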

How the data were processed

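Poly(A) RNA of 30 tissue samples was sequenced with a kit that does not mark strand. The authors aligned clean read pairs to Ensembl Rnor_6.0 with HISAT2 2.0.5 and deposited raw counts per gene from featureCounts 1.5.0-p3. The deposited FPKM, and the authors' columns of scaled group means (signal), log2 fold changes and p-values from DESeq2 for their own comparisons, were not used. Every count column was mapped to its sample by name.

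The 10 members and all gene lists were chosen with earlier results of these data known. Counts were filtered (filterByExpr), scaled by TMM and tested with the quasi-likelihood test of edgeR 4.0.16 in R 4.3.3, 2 groups at a time for diet and for tissue and 4 groups for the interaction, with tissues taken as unpaired. Benjamini-Hochberg adjustment ran over all genes tested, with a threshold of 0.05. RPKM used the deposited gene lengths. The test was checked on simulated counts. DESeq2 1.42.0, other scalings, no filter, 1 fit per tissue, covariates (intron share from the study's mapping table, marker levels) and leaving out each library were alternatives. The S1/S2 markers alone as a covariate, and leaving out 2 OM libraries together, were chosen after seeing the data. All members were named, and from each of 4 pathway lists at most the 3 called genes with the largest log2 ratio. Of 78 list symbols besides the members 77 were found, Pthlh was not analysed here, and of 2 rows named Gnas the first was used. Depth was 5408126 to 21842843 counts, and a floor of 3 counts covers counting error only.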

Additional observations from a re-analysis of the deposited data

Results flagged for a closer look

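Among 60 sets of 5 libraries (each gene in each group, on the log2 CPM scale), 4 had a library far from the rest, where chance gives about 1 set in 20. Slc34a1 in Cx HS21 was 6329 CPM in replicate 13 and 4189 to 4575 CPM in the others. In Cx HS14 replicate 10, Slc34a1 was 4962 CPM, against 5994 to 6382 CPM in the others, and Slc34a3 was 226.6 CPM, against 321 to 369 CPM. That library had the lowest S1/S2 marker sum (5003 CPM) and the lowest leukocyte sum (180 CPM) of its group. Its thick ascending limb (2439 CPM), distal convoluted tubule (2119 CPM) and S3 (96.9 CPM) sums were the highest. Cyp27b1 was at 0 in OM LS replicate 5 and at 2 or 3 counts in the others.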

How the results depend on the processing

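The spread between libraries limited the diet comparisons of Slc34a1 and Slc34a3 in OM (SE 0.756 to 1.07 on the log2 scale), and low counts kept Cyp27b1 there below the filter. In Cx HS21 the calls of Slc34a1, Slc34a3, Slc20a2 and Pth1r held without any single library (10 fits). The number of members called in Cx HS21 was 1 with the intron share as a covariate, 0 with the leukocyte markers and 0 with the S1/S2 markers alone, and 6 to 7 under the other alternatives. Of all genes, 1593, 512, 0 and 4909 to 6054 passed there, in this order, against 5638 with TMM and no covariate. In Cx HS14 it was 1 with DESeq2, with DESeq2 size factors, with the intron share, with the proximal markers and with the S1/S2 markers alone. In these fits 914, 321, 427, 882 and 311 of all genes passed, in this order, against 330. In OM HS21 it was 1 with the proximal markers, and in Cx HS21 against HS14 it was 2 in 1 fit of the 15 cortical libraries. Of all genes, 947 passed in the first of these, against 112, and 3405 in the second, against 2330. Leaving out 1 library gave 0 to 1 members in Cx HS14, 5 to 8 in Cx HS21, 0 to 4 in Cx HS21 against HS14 and 6 to 8 in OM against Cx. The calls over all genes moved too, from 85 to 471, 5025 to 5749, 1029 to 3524 and 4932 to 7558, in the same order. Pathway genes called were 3 in Cx HS14 and 1 in OM HS14 by DESeq2, and 1 in OM HS21 with total counts, beside 914, 110 and 44 of all genes. The cause was not tested.

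Of the member results, 41 changed sign outside these leave-one-out fits, and 0 of them passed the threshold there. The values of those printed in the report follow, as log2 ratios. With total counts Vdr was 0.0035 in Cx HS14. With the leukocyte markers Slc20a1 was -0.013, Slc9a3r1 -0.070, Kl -0.011 and Vdr 0.33 in Cx HS14, Slc20a1 -0.026, Slc9a3r1 0.037 and Kl 0.13 in Cx HS21, Slc34a1 1.05 in OM HS14, and Slc34a1 2.64 and Pth1r 1.28 in OM HS21. With the S1/S2 markers alone Slc34a3 was 0.10 and Slc20a1 -0.045 in Cx HS14, and Slc34a1 0.90, Slc34a3 0.46, Slc20a1 -0.23, Slc9a3r1 1.17 and Vdr -1.08 in Cx HS21. With both proximal lists Slc20a1 was -0.0026 in OM HS21. With the intron share Cyp24a1 was 0.069 and Vdr -0.068 in Cx HS21. Without OM LS replicate 2 and OM HS14 replicate 10 together, Slc34a1 was 0.44 and Kl -0.027 in OM HS14. Leaving out 1 library gave, in Cx HS14, ranges of -0.11 to 0.034 for Slc34a3, -0.0096 to 0.10 for Slc20a1, -0.0032 to 0.10 for Slc9a3r1, -0.40 to 0.12 for Cyp24a1 and -0.059 to 0.064 for Vdr. In OM HS14 they were -0.97 to 0.30 for Slc34a1 and -0.19 to 0.65 for Kl, in OM HS21 -0.68 to 0.58 for Slc34a1, -0.58 to 0.14 for Pth1r and -0.023 to 0.050 for Slc20a1, and in OM against Cx -0.35 to 0.26 for Slc9a3r1.

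Samples of equal number in the 2 tissues deviated together from their group means with a correlation over 0.1 in 12 of 15 pairs (lowest -0.082, highest 0.51). The HS21 pairs lay at 0.26 to 0.51, and 13 of the 15 correlated best with their own number within the diet. This is evidence from the data that equal numbers may share a rat, and the low pairs do not exclude it. By the study's methods, the kidneys of a group were dissected into both tissues, so the tissues shared rats. The labels do not say which libraries belong to the same rat, so the main comparisons left the tissues unpaired. Their *P* values between tissues and for the interaction thus take libraries of shared rats as independent. With the replicate number as a block, 8 members were called in OM against Cx (1 higher, 7 lower), with 5011 of all genes called against 5845 without it, Cyp24a1 being the member added (log2 ratio -4.88, adjusted *P* = 0.0359), and Slc9a3r1 turned to a log2 ratio of -0.17. In both interactions 0 members were called with the block.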
